A study of Danio rerio with 6 samples.

Results

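The zebrafish miR-10 and miR-196 miRNAs, most of them encoded in Hox clusters, were followed over control, 1% and 1.5% ethanol with 8 array probes. These were named dre-miR-10a, dre-miR-10a*, dre-miR-10b, dre-miR-10c, dre-miR-10d, dre-miR-10d*, dre-miR-196a and dre-miR-196b. They belong to 243 probes named for zebrafish miRNAs, with a name part that starts with dre or ZF_miR. The 8 probes were chosen by name, with earlier results of these data known, and the dre prefix is left off from here on. All 8 are called Hox cluster probes below, including miR-10d and miR-10d*, whose gene had no Hox neighbour. Whole embryos were grown from 4 h to 24 h after fertilisation in plain system water (control), in 1% ethanol or in 1.5% ethanol, and total RNA of the intact embryos was collected at 24 h. Embryos were kept in dishes of about 200, and the labels name no strain or mutation and no number of embryos per RNA extract. Each group had 2 one-colour Cy3 arrays, numbered as replicates 1 and 2, with 4 spots for each of the 8 probes. Nothing in the labels says that the replicates came from separate clutches, so the p-values measure only the spread between these samples, which may be technical. The comparisons ask whether ethanol during this window altered the level of each miRNA.

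Hox genes are ordered along the chromosome and pattern the body from head to tail. The miR-10 and miR-196 genes lie between Hox genes in vertebrate clusters and are transcribed in overlapping parts of the trunk and tail. In zebrafish, miR-10 is known to repress hoxb1a and hoxb3a, and miR-196 is known to act in axial patterning and in the start of the pectoral fin; in mouse, miR-196 directs cleavage of Hoxb8 mRNA. A star marks the opposite arm of the same hairpin, usually the rarer product.

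Of the 10 miR-10 and miR-196 genes in the RefSeq gene table of the zebrafish assembly GRCz12tu, 9 had Hox genes among their nearest neighbours. The gene of miR-196b stands between hoxb10a and hoxb9a, and the gene of miR-10c between hoxb5a and hoxb4a. The gene of miR-10a lies between hoxb5b and skap1. Of the miR-10b genes, mir10b-1 lies between hoxd4a and hoxd9a, and dre-mir-10b-2 between hoxc5a and hoxc4a. The miR-196a genes lie between hoxc3a and hoxc9a and between hoxa9a and hoxa3a. The genes mir196c and mir196d, between hoxc11b and hoxc6b and between hoxa10b and hoxa9b, were matched to no probe. Their listed synonyms include mir196a-2b and mir196b-1b, and whether the miR-196a or miR-196b probes also read them was not tested. The exception to the Hox neighbours is mir10d, the gene of miR-10d and miR-10d*, whose chromosome held 0 Hox genes in this table. Its nearest named neighbours, mtx2 and lnpk, stand in a stretch with nfe2l2b and atp5mc3b, and nfe2l2a and atp5mc3a stand near mir10b-1 in the Hox D cluster. The probes named for miR-10b and miR-196a cannot tell their gene copies apart.

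Levels below are normalised log2 intensities. On each array an empty-spot limit was set at the 95th percentile of raw intensity over spots that carry no probe. A probe passed the limit where its kept spots over it were no fewer than those under it. The limit was 451 and 276.5 intensity units on control replicates 1 and 2, 350 and 335 at 1% ethanol, and 392 and 256 at 1.5% ethanol. Among the members, only miR-196b passed it on all 6 arrays. miR-10a* passed on 3 arrays, miR-196a on 2, and the other 5 probes on none. Over all 243 zebrafish probes, 28 (11.5%) passed on all arrays and 84 (34.6%) on 1 or more, so 1 and 3 of the 8 members are close to those shares. Of 182 probes that carry only worm or insect names, 20 (11%) also passed on all 6 arrays and 42 (23.1%) on 1 or more. A pass thus does not by itself show that the miRNA a probe is named for was present. The likeness of those 182 probes to zebrafish miRNAs was not analysed. Of 16 tissue marker probes, 6 passed on all arrays, 3 on 1 array each and the others on none. Neural miR-9 and miR-132 passed on all arrays and neural miR-124 on 1. Muscle miR-1 passed on all, miR-133a on 1 and miR-206 on none, and epidermal miR-203a passed on all but miR-205 on none. Of the embryonic miR-430 family, miR-430b and miR-430j passed on all, miR-430a on 1, and miR-430c and miR-430i on none. The blood markers miR-144 and miR-451 and the endothelial marker miR-126 passed on none. Slides were inferred from the scanner files. Slide 1 held replicate 1 of 1% ethanol and of control, slide 2 held 1.5% ethanol replicate 1 and control replicate 2, and slide 3 held replicate 2 of both ethanol doses.

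miR-196b, the miRNA beside hoxb9a, was the member with clear signal, and it did not differ between the groups past the threshold. Its level was 10.45 and 10.35 in control, 10.20 and 10.21 at 1% ethanol, and 9.96 and 10.45 at 1.5% ethanol. Both 1% arrays lay below both controls, while 1 of the 1.5% arrays lay below both controls and the other between them. The mean was 10.21 ± 0.0036 at 1% ethanol and 10.40 ± 0.08 in control (SD, n = 2), a log2 fold change of -0.19 (95% interval -0.69 to 0.30, limma adjusted p = 0.874). At 1.5% ethanol the mean was 10.20 ± 0.34, and the log2 fold change from control was -0.20 (95% interval -0.70 to 0.30, adjusted p = 0.964). Both intervals include 0, and the values allowed by them reach -0.70. RNA came from whole embryos, so fewer cells that make a miRNA and less of it per cell cannot be told apart.

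All kept raw spots of miR-196b stood over the empty-spot limit of their array. Kept spots read 1654 to 2132 and 1000 to 1130 intensity units on the control arrays, 997 to 1225 and 1193 to 1264 at 1% ethanol, and 992 to 1022 and 1307 to 1431 at 1.5% ethanol. Control replicate 1 was the brightest before normalisation, and it was also the array with the highest median over all zebrafish probe spots, 248 units beside 169 to 197 on the other arrays. On that array the 2 spots in the upper print block read 2120 and 2132 with local backgrounds of 239 and 243, beside 1654 and 1685 with backgrounds of 75 and 78 in the lower block. Within slide 1 the 1% minus control difference was -0.25 log2 units, and within slide 2 the 1.5% minus control difference was -0.38. Within slide 3 the 1.5% minus 1% difference was 0.24. With slide as a block the log2 fold changes from control were -0.37 at 1% and -0.26 at 1.5% ethanol (limma adjusted p = 0.994 and 0.998). That fit gave every Hox cluster probe the same standard error, 0.43 log2 units, beside 0.21 for miR-196b in the fit without slides. Its p-values thus do not measure the spread of miR-196b itself. In the authors' deposited table the log2 fold change of miR-196b at 1% ethanol was 0.13, and the median of all probes was 0.27.

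**Figure D1:**
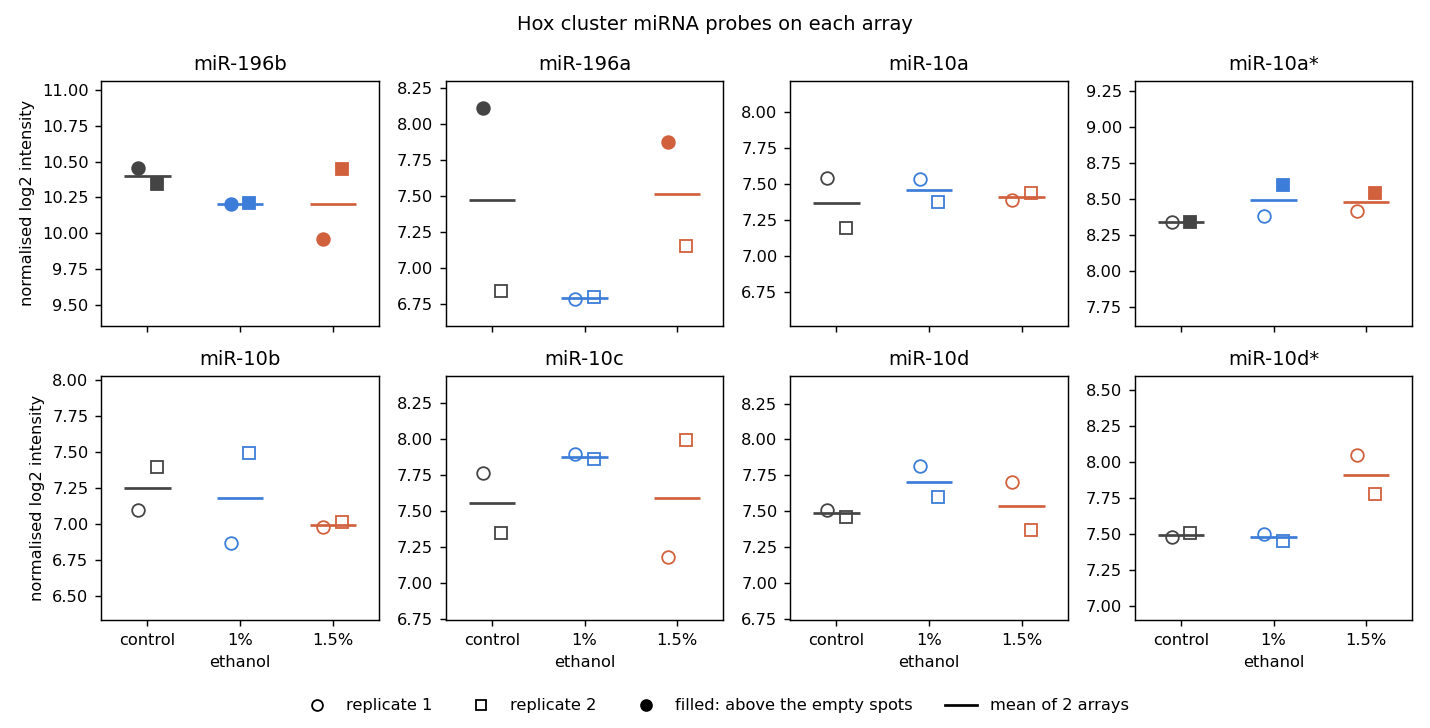
Normalised log2 intensity (vertical axis) of the 8 Hox cluster miRNA probes by ethanol group, 1 point per array, with bars at the mean of 2 arrays and filled symbols where the probe passed the empty-spot limit; every panel spans the same number of log2 units. miR-196b alone is filled on all 6 arrays, miR-196a has its 2 filled points on control replicate 1 and 1.5% ethanol replicate 1, and both 1.5% ethanol points of miR-10d* lie above the other 4.

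miR-196a, encoded in the Hox A and Hox C clusters, had the widest replicate spread of the 8 probes. It was at 8.11 and 6.83 in control, 6.78 and 6.80 at 1% ethanol, and 7.87 and 7.15 at 1.5% ethanol. Control replicate 1 and 1.5% ethanol replicate 1 were high and the other 4 arrays were low, and the 2 control arrays were further apart than any pair of group means. The log2 fold change was -0.68 at 1% ethanol (95% interval -1.76 to 0.40, adjusted p = 0.874) and 0.04 at 1.5% ethanol (95% interval -1.04 to 1.12, adjusted p = 0.977). Between the doses it was 0.72 (95% interval -0.36 to 1.80, adjusted p = 0.869).

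On its high arrays the spots of miR-196a differed among themselves. On 1.5% ethanol replicate 1 the 2 upper spots read 626 and 734 over local backgrounds of 246 and 251, and the 2 lower spots read 114 and 151 over 81 and 92. On control replicate 1 the upper spots read 328 and 526 over backgrounds of 167 and 227, and the lower spots 280 and 565 over 80 and 82. High local background stood beside both high spots on the ethanol array, but not beside the highest on the control array. Without spots of high local background the 1.5% minus control value was -0.46 and the 1.5% minus 1% value 0.22. Within slides, miR-196a differed by -1.33 for 1% minus control on slide 1 and by 1.04 for 1.5% minus control on slide 2. The 1% value was -0.04 without control replicate 1 and -1.32 without control replicate 2, and the 1.5% value was 0.68 without control replicate 1 and -0.60 without control replicate 2.

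**Figure D2:**
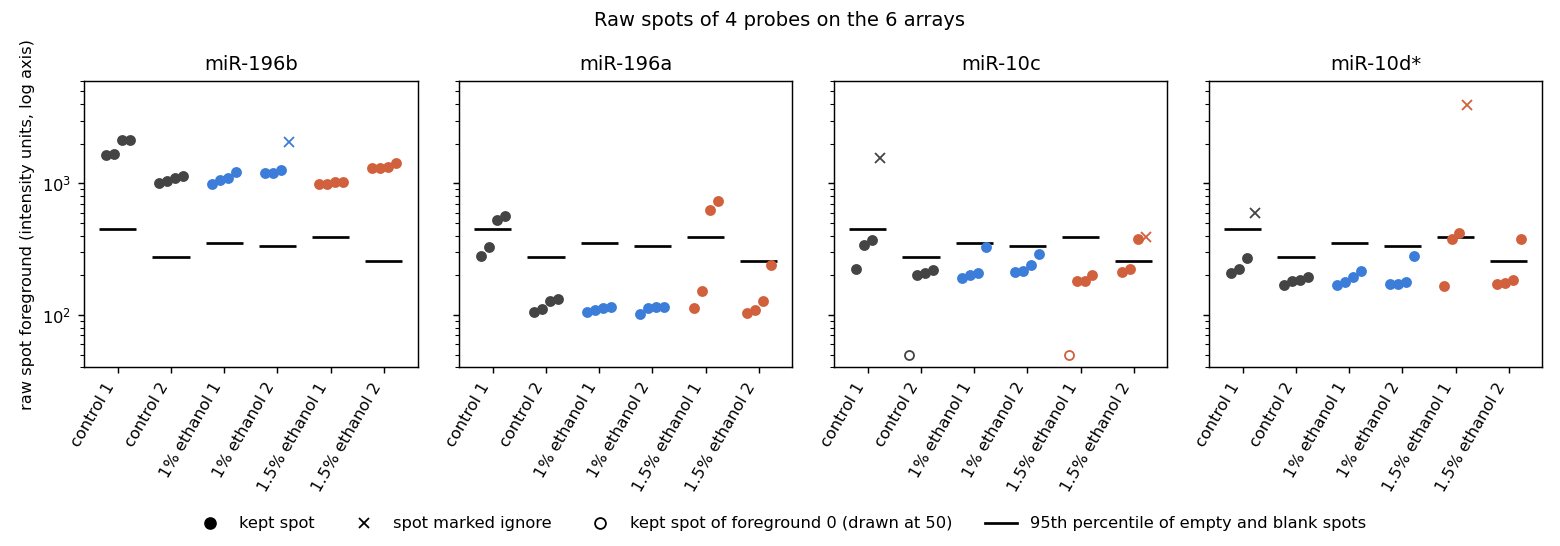
Raw foreground of each spot (vertical log axis, intensity units) on the 6 arrays for miR-196b, miR-196a, miR-10c and miR-10d*; dots are kept spots, crosses are spots marked ignore by the quantification software, open dots are kept spots that read 0, and bars mark the empty-spot limit. All kept spots of miR-196b lie over the bar, while on the arrays where miR-196a or miR-10d* is high their spots lie apart from each other.

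The main strands miR-10a, miR-10b, miR-10c and miR-10d passed the empty-spot limit on no array, so only log2 differences are given and no linear fold. Their spots marked ignore, which the rule does not count, all stood over the limit of their array. For miR-10d on control replicate 1 these read 561 and 913 units, against a limit of 451. Counting them would leave as many spots over the limit as under it, which is a pass by the rule. The same held for miR-10c on 1.5% ethanol replicate 2. There a kept spot of 375 and an ignored spot of 394 stood over the limit of 256, beside kept spots of 211 and 225. miR-10a, from the Hox Bb cluster, was at 7.54 and 7.20 in control, 7.54 and 7.38 at 1% ethanol, and 7.39 and 7.44 at 1.5% ethanol. Its groups overlapped. miR-10b, from the Hox C and Hox D clusters, was at 7.10 and 7.40 in control, 6.87 and 7.50 at 1% ethanol, and 6.98 and 7.02 at 1.5% ethanol. Both 1.5% arrays were below both controls, with a log2 difference of -0.25 (95% interval -0.86 to 0.35, adjusted p = 0.964). That difference was -0.40 without control replicate 1, -0.10 without control replicate 2 and -0.58 with ignored spots kept. On every array the brightest spot of miR-10b lay in the lower block. The brightest spot read 337 to 6942 units on the 5 arrays where it was marked ignore. On 1% ethanol replicate 2 it read 703 and was kept beside spots of 105, 118 and 151. Whether it was the same lower-block spot on all arrays was not analysed.

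miR-10c, from the Hox Ba cluster that also holds miR-196b, was at 7.76 and 7.35 in control, 7.89 and 7.86 at 1% ethanol, and 7.18 and 7.997 at 1.5% ethanol. Both 1% arrays were above both controls (log2 difference 0.32, 95% interval -0.41 to 1.05, adjusted p = 0.874). The lower value of control and of 1.5% ethanol each included a kept spot that read 0, beside spots of 181 to 219 units. Without spots under 100 units the miR-10c difference from control was 0.04 at 1% ethanol, against 0.32 with them, and -0.09 at 1.5% ethanol, against 0.03 with them. At 1% ethanol it was -0.01 with the median over spots or with slide as a block and -0.03 with cyclic loess, so the separation from control turned with the processing. miR-10d, whose gene has no Hox neighbour, was at 7.51 and 7.46 in control, 7.81 and 7.60 at 1% ethanol, and 7.71 and 7.37 at 1.5% ethanol. Its 1% arrays were above both controls (0.22, 95% interval -0.24 to 0.68, adjusted p = 0.874), and its 1.5% arrays spanned them. Control replicate 1 of miR-10d rests on kept spots of 238 and 251, with spots of 561 and 913 marked ignore. With ignored spots kept the 1% difference was -0.12, with empty and blank spot scaling -0.03 and with cyclic loess -0.02. The median of all zebrafish probes in these settings was -0.03, -0.21 and -0.03, in the same order.

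The star strands are the opposite hairpin arms of miR-10a and miR-10d. Averaged over the 6 arrays, miR-10a* was at 8.44 and miR-10a at 7.41, and miR-10d* at 7.63 and miR-10d at 7.58. Which arm was the more abundant was not tested. miR-10a* was at 8.34 and 8.34 in control, 8.38 and 8.60 at 1% ethanol, and 8.42 and 8.54 at 1.5% ethanol, and all 4 ethanol arrays were above both controls. The log2 fold change was 0.15 at 1% ethanol (95% interval -0.25 to 0.55, adjusted p = 0.874) and 0.14 at 1.5% ethanol (95% interval -0.26 to 0.55, adjusted p = 0.964). Both comparisons use the same control arrays. The miR-10a* probe passed the empty-spot limit on replicate 2 of each group and on replicate 1 of none. Its raw medians were 396 and 278.5 units in control, 322 and 377.5 at 1% ethanol, and 372.5 and 343.5 at 1.5% ethanol. Before normalisation control replicate 1 thus had the highest median of the 6 arrays.

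miR-10d* was at 7.48 and 7.50 in control, 7.50 and 7.45 at 1% ethanol, and 8.05 and 7.78 at 1.5% ethanol. The 1.5% arrays lay above all others, and control and 1% ethanol overlapped. The difference was 0.42 log2 units from control (95% interval 0.01 to 0.83, unadjusted p = 0.0471, limma adjusted p = 0.941) and 0.43 from 1% ethanol (95% interval 0.02 to 0.85, unadjusted p = 0.0413, adjusted p = 0.587). Neither passed over the 243 probes, and the probe passed the empty-spot limit on no array. On 1.5% ethanol replicate 1 the 3 kept spots read 165, 377 and 420 units, with another spot of 3925 marked ignore. Counting that spot would leave as many spots over the limit of 392 as under it, which is a pass by the rule. On replicate 2 the spots read 172, 174, 184 and 375, so 1 spot of 4 was high there. The 8 spots at 1% ethanol, all kept, read 169 to 279. Kept control spots read 208 to 271 on replicate 1, with another spot of 597 marked ignore, and 169 to 193 on replicate 2. Within slide 2 the 1.5% minus control difference was 0.54 and within slide 3 the 1.5% minus 1% difference was 0.32. The value at 1.5% against control stayed positive in 24 of 24 alternatives, from 0.28 to 0.76. Those alternatives reprocess the same arrays, so their signs are not independent of each other. In some the value could not move from 0.42, such as with the replicate number as a block or without a 1% ethanol array. The count of 24 includes these.

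As a group, 0 of the 8 Hox cluster probes passed an adjusted p of 0.05 at 1% ethanol by limma, and 0 had an unadjusted p under 0.05, beside 15 of all 243 probes. Over all zebrafish probes 0.412% were called there, which was the single probe miR-128, lower at 1% ethanol (-1.93, adjusted p = 0.0152). That call was lost, with 0 probes called, without control replicate 1, control replicate 2 or 1% ethanol replicate 1 (lowest limma adjusted p of any probe 0.311, 0.19 and 0.0774). It was also lost with the median over spots (0.174), without spots under 100 units (0.284), in the authors' deposited table (0.0866) and without normalisation (0.0531). Of the 8 members, 4 values were above 0 and 4 below, beside 50.6% above 0 over all probes, with a median of 0.04 beside 0.00 for all probes. Both 1% arrays were above both controls for 3 members (20.6% of all probes) and below them for 2 (16.9% of all probes). The 3 were miR-10a*, miR-10c and miR-10d, and the 2 were miR-196a and miR-196b. Split by family, 4 of 6 miR-10 values were above 0 and both miR-196 values were below 0, a contrast that was not tested. The probes named for human miR-196a and miR-196b, described below, went the other way at 1% ethanol. Their log2 differences were 0.25 and 0.31 (limma adjusted p = 0.963 for each), and neither passed the empty-spot limit on any array.

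At 1.5% ethanol 0 of 8 passed by limma, where 0% of all probes were called, and 1 member, miR-10d*, had an unadjusted p under 0.05, as did 12 of all 243 probes. Values above 0 numbered 6 of 8, beside 51% of all probes, and the median was 0.04 beside 0.01 for all probes. Groups did not overlap for miR-10a* and miR-10d*, which were above control (11.5% of all probes), or for miR-10b, which was below it (17.3%). Between 1.5% and 1% ethanol 0 of 8 passed, beside 0% of all probes, with 1 member, miR-10d*, at an unadjusted p under 0.05, as were 18 of all 243 probes. The 1.5% arrays were above the 1% arrays for miR-10d* and miR-196a (15.2% of all probes) and below them for 0 members (16.5%). The member median was -0.03, beside -0.05 for all probes. For any difference among the 3 groups, the moderated F test of limma called 0 of 8 members and 0.412% of all probes, and the lowest unadjusted p of a member was 0.0693, for miR-10d*. Over the 8 members and 3 comparisons, 6 of 24 log2 fold changes kept their sign in every alternative processing. Shares of members near these background shares are not a result about the Hox clusters. With 2 arrays a group, the smallest two-sided p of an exact permutation test is 0.333.

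**Figure D3:**
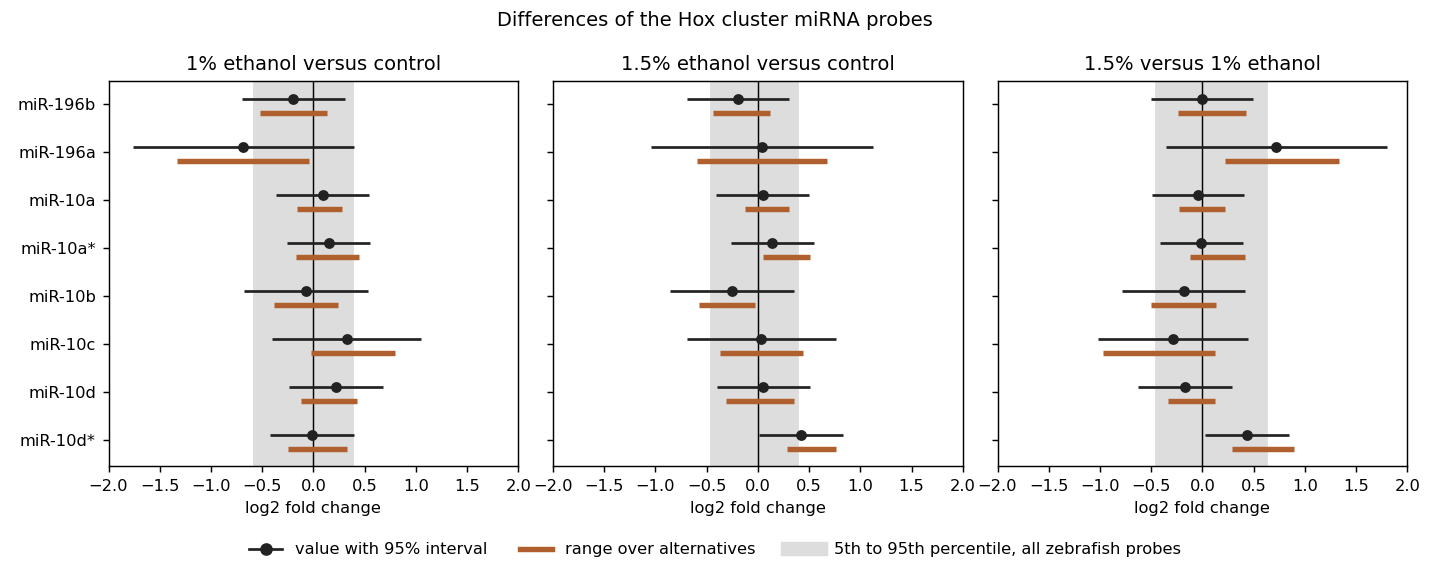
Log2 fold change (horizontal axis) of the 8 Hox cluster miRNA probes in the 3 comparisons; black points and lines are the values with their 95% intervals, brown lines the range over alternative processing, and the grey band the 5th to 95th percentile of the 243 zebrafish probes. Every interval but those of miR-10d* at 1.5% ethanol includes 0, and miR-196a has the widest intervals, from -1.76 to 0.40 at 1% ethanol.

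Zebrafish miR-99, miR-100 and miR-125, which are grouped with the miR-10 family but lie outside the Hox clusters, were read as a comparison. None of the 5 probes passed at either dose (limma, 0 with an unadjusted p under 0.05). miR-100, on 5 of the 6 arrays, was the 1 probe of this list to pass the empty-spot limit, at 8.90 and 8.003 in control, 9.07 and 8.63 at 1% ethanol, and 9.29 and 8.32 at 1.5% ethanol. Its groups overlapped and its replicates differed by 0.44 to 0.97 log2 units. The median log2 fold change of the list was 0.18 at 1% and 0.17 at 1.5% ethanol, beside 0.12 and 0.05 for the 6 miR-10 probes.

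The array also held 10 probes for Hox cluster miRNAs of other species. The probe named for human, mouse, rat and opossum miR-196b passed the empty-spot limit on no array, at 6.94 and 7.04 in control, 7.36 and 7.24 at 1% ethanol, and 7.44 and 7.12 at 1.5% ethanol, unlike the zebrafish miR-196b probe. How the sequences of these probes differ was not analysed here. Probes for human miR-10a, miR-10b and miR-196a and for fruit fly miR-iab-4-5p, a miRNA of the fly Hox complex, likewise passed on none. The human miR-196a probe was above control at 1% ethanol (log2 difference 0.25, limma adjusted p = 0.963). Between the doses its difference was -0.29 (adjusted p = 0.976). The zebrafish miR-196a probe had the other sign in both, at -0.68 and 0.72. Human miR-10a and miR-10b had the signs of the zebrafish probes at both doses against control, but not between the doses. In all, 5 of the 10 passed on 1 or more arrays. Mouse miR-10b passed on control replicate 2 and 1.5% ethanol replicate 2, at 7.95 and 8.46 in control, 7.94 and 8.08 at 1% ethanol, and 7.74 and 8.08 at 1.5% ethanol, and its groups overlapped. Fruit fly miR-10 and miR-iab-4-3p each passed on 1.5% ethanol replicate 2 alone. Mouse miR-615, a miRNA of the mammalian Hox C cluster, passed on all 6 arrays, at 9.07 and 9.13 in control, 8.83 and 9.17 at 1% ethanol, and 8.89 and 9.43 at 1.5% ethanol, while the human miR-615 probe passed on 1. The groups of mouse miR-615 overlapped, and which RNA gave that signal was not tested. Fruit fly miR-10 was at 7.39 and 7.73 in control, 7.42 and 7.65 at 1% ethanol, and 7.87 and 8.74 at 1.5% ethanol, where the higher value came from kept spots of 176 and 963 units. In a fit over all named probes 0 of these 10 passed in any comparison; the smallest unadjusted p, 0.0364, was that of fruit fly miR-iab-4-3p at 1% ethanol (0.41, limma adjusted p = 0.914).

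**Figure D4:**
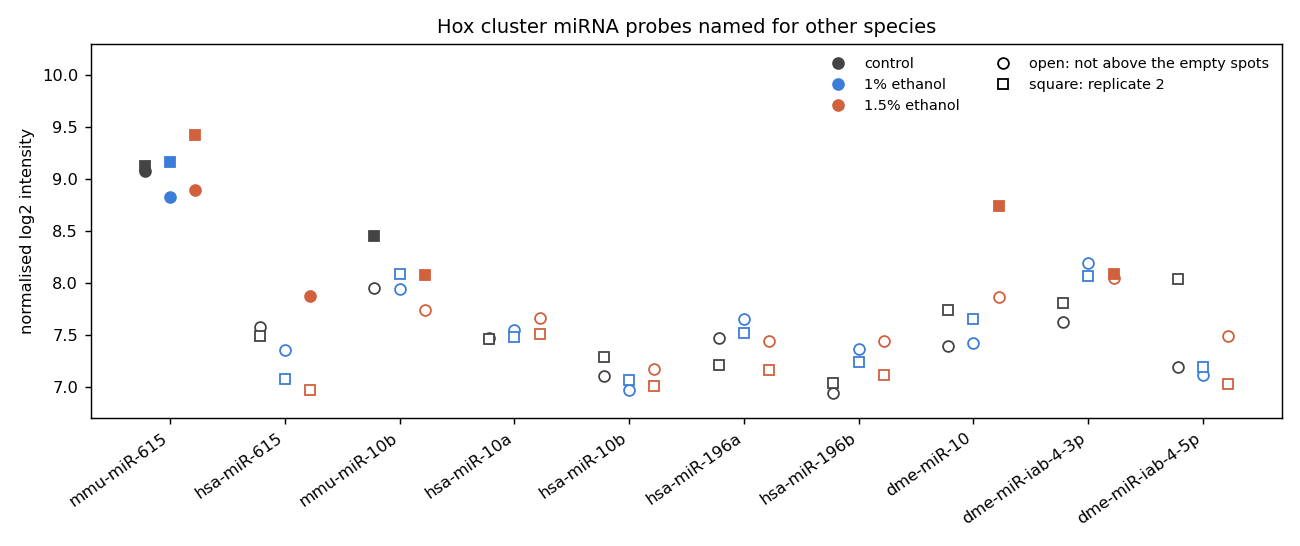
Normalised log2 intensity (vertical axis) of the 10 Hox cluster miRNA probes named for other species, by ethanol group, with circles for replicate 1, squares for replicate 2 and filled symbols where the probe passed the empty-spot limit. Mouse miR-615 alone is filled on all 6 arrays, between 8.83 and 9.43.

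For miR-196b, the 3 zebrafish probes with the most similar course over the 6 arrays were miR-192, miR-15c and miR-22b. Their root mean square differences from it, after centring each probe on its mean, were 0.09, 0.11 and 0.13 log2 units, beside a median of 0.32 over 81 other zebrafish probes that passed the limit on 1 or more arrays. miR-192 passed it on 3 arrays and the other two on 1 each. These 6 arrays share their normalisation, and the likeness is a description.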

How the data were processed

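Per the file headers, the deposited scanner files give each spot's foreground and local background intensity in a single channel, with no background subtracted. Total RNA was labelled with Cy3, per the labels' protocols. The authors' deposited table is in log2 units; all 48 member values were rebuilt within 0.001 by averaging the log2 of spots at 100 units or over and subtracting the array's Ncode_Control mean. It served as an alternative. Intensities were corrected by normexp (offset 50), spots marked ignore (4.64% to 11.7% of an array) were left out, and log2 values were quantile normalised over the miRNA spots and averaged per probe (R 4.3.3, limma 3.58.1). A linear model of the 3 groups on 6 arrays (3 residual degrees of freedom, prior 3.15) gave moderated two-sided p-values, adjusted by Benjamini-Hochberg over 243 probes. The code was tested on simulated data. Alternatives changed the background correction, normalisation, spots, probes, blocks and arrays. Slides were inferred from the scanner headers. The members, the lists, the empty-spot limit and the rule for named probes (all members, the related and other-species lists, called probes and the 3 probes most like a member) were chosen with earlier results of these data known. Gene neighbours come from RefSeq and are given without coordinates.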

Additional observations from a re-analysis of the deposited data

How the results depend on the processing

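In all 25 alternatives, 3 of them added after the data were seen, 0 Hox cluster probes passed in any comparison (limma, lowest adjusted p = 0.259). The alternative restricted to the 84 probes that passed the empty-spot limit could test only 3 members. Of 585 recomputed member values 87 changed sign, and 500 moved by less than the replicate SD. The 500 include values that could not move. Fits over other probe sets, with replicate number or slide position as a block, or with only the arrays compared leave fold changes as they were. Leaving out an array that is not in the comparison does so too. Signs held in every alternative for 6 of 24 values: miR-196a at 1% ethanol and between the doses, miR-10d* at 1.5% ethanol and between the doses, and miR-10a* and miR-10b at 1.5% ethanol. The human miR-196a probe, described above, had the opposite sign to miR-196a in both of its comparisons listed here. Scaling also moved the median of all probes, to -0.14 at 1.5% ethanol and -0.24 between the doses without normalisation, and to -0.15 between the doses with 75th percentile scaling. That median was 0.21 at 1.5% ethanol with Ncode_Control scaling. It was -0.21 at 1% ethanol and 0.21 between the doses with empty and blank spot scaling, and 0.27 at 1% and 0.32 at 1.5% ethanol in the authors' deposited table. Relative to it, miR-196b at 1% ethanol was below 0 in 25 of 25 alternatives (-0.37 to -0.14). Likewise miR-10a* at 1% ethanol was above 0 in 25 of 25 (0.04 to 0.25), and the 6 values named above kept their relative signs. These relative counts include alternatives that could not differ. The all-species fit, the replicate and position blocks and the fits of only the arrays compared left both the value and the median unchanged. Leaving out an array that is not in the comparison did so too. No normalisation and the 75th percentile, Ncode_Control and empty and blank spot scalings shift all probes of an array alike, so their relative values were the same. All alternatives reuse the same 6 arrays. The values whose sign changed were as follows. Without background correction the values were 0.075 for miR-10d* at 1% ethanol and -0.27 for miR-10c at 1.5% ethanol. With local background subtracted the value was -0.18 for miR-10c at 1.5% ethanol. Without normalisation the values were 0.056 for miR-10b and 0.029 for miR-10d* at 1% ethanol and -0.11 for miR-10a, -0.15 for miR-10c, -0.079 for miR-10d and -0.20 for miR-196a at 1.5% ethanol. With cyclic loess the values were -0.089 for miR-10a, -0.025 for miR-10c and -0.021 for miR-10d at 1% ethanol, -0.069 for miR-10a, -0.036 for miR-10c and -0.033 for miR-196a at 1.5% ethanol and 0.020 for miR-10a, 0.17 for miR-10a*, 0.073 for miR-10b, 0.061 for miR-10d and 0.17 for miR-196b between the doses. With 75th percentile scaling the values were 0.021 for miR-10b at 1% ethanol, -0.057 for miR-10a, -0.088 for miR-10c, -0.022 for miR-10d and -0.14 for miR-196a at 1.5% ethanol and 0.060 for miR-10a* and 0.072 for miR-196b between the doses. With Ncode_Control scaling the values were 0.083 for miR-10b and 0.057 for miR-10d* at 1% ethanol, 0.081 for miR-196b at 1.5% ethanol and 0.086 for miR-10a, 0.28 for miR-10a* and 0.30 for miR-196b between the doses. With empty and blank spot scaling the values were -0.16 for miR-10a, -0.17 for miR-10a* and -0.030 for miR-10d at 1% ethanol, -0.027 for miR-196a at 1.5% ethanol and 0.22 for miR-10a, 0.42 for miR-10a*, 0.12 for miR-10d and 0.43 for miR-196b between the doses. In the authors' deposited table the values were 0.22 for miR-10b, 0.32 for miR-10d* and 0.13 for miR-196b at 1% ethanol, 0.12 for miR-196b at 1.5% ethanol and 0.026 for miR-10a and 0.062 for miR-10a* between the doses. With ignored spots kept the values were -0.054 for miR-10a and -0.12 for miR-10d at 1% ethanol, -0.12 for miR-10c and -0.31 for miR-10d at 1.5% ethanol and 0.089 for miR-10a and 0.17 for miR-196b between the doses. With the median over spots the values were -0.062 for miR-10a and -0.015 for miR-10c at 1% ethanol and -0.10 for miR-10a, -0.094 for miR-10c and -0.027 for miR-196a at 1.5% ethanol. With slide as a block the values were -0.012 for miR-10c and 0.086 for miR-10d* at 1% ethanol, -0.022 for miR-10c at 1.5% ethanol and 0.10 for miR-10a and 0.11 for miR-196b between the doses. Without spots under 100 units the value was -0.090 for miR-10c at 1.5% ethanol. Without spots of high local background the values were -0.29 for miR-10c and -0.46 for miR-196a at 1.5% ethanol and 0.066 for miR-10a*, 0.057 for miR-10b and 0.023 for miR-196b between the doses. With single arrays left out, the value ranged for miR-10a from -0.083 to 0.26, miR-10b from -0.38 to 0.24 and miR-10d* from -0.041 to 0.0081 at 1% ethanol. At 1.5% ethanol, it ranged for miR-10a from -0.13 to 0.22, miR-10c from -0.37 to 0.44, miR-196a from -0.60 to 0.68, miR-10d from -0.11 to 0.22 and miR-196b from -0.44 to 0.044. Between the doses, it ranged for miR-10a from -0.12 to 0.035, miR-10a* from -0.12 to 0.10, miR-10b from -0.50 to 0.13, miR-196b from -0.24 to 0.24 and miR-10c from -0.70 to 0.12. A lone array left in a group was assumed to vary like the other groups. The cause of these shifts was not tested.

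Over all zebrafish probes, calls at 1% ethanol, 1 as reported, were 0 without normalisation, in the authors' deposited table, with the median over spots and without spots under 100 units. They were 2 with empty and blank spot scaling, and 3 with Ncode_Control scaling or slide as a block. At 1.5% ethanol, 0 as reported, they were 1 in the authors' deposited table, and 2 with Ncode_Control scaling or slide as a block. Between the doses, 0 as reported, they were 2 without normalisation, 3 in the authors' deposited table, and 4 with Ncode_Control scaling or slide as a block. Calls among the 3 groups, 1 as reported, were 3 in the authors' deposited table and 6 with Ncode_Control scaling or slide as a block. All Hox cluster probes had the same standard error with Ncode_Control scaling (0.48 log2 units), and likewise with slide as a block (0.43). Their p-values in those fits do not measure each probe's own spread. Calls among the 3 groups were 0 without normalisation, with cyclic loess, with ignored spots kept and with the median over spots. They were also 0 with only probes that passed the empty-spot limit and with all species' probes. The same held without spots under 100 units or of high local background, and with the replicate block. Leaving out single arrays gave 0 to 3 calls at 1% ethanol (3 without 1% ethanol replicate 2, 0 without 1% ethanol replicate 1 or either control). It gave 0 to 3 between the doses (3 without 1% ethanol replicate 2) and 0 to 1 among the groups (0 without any array but 1% ethanol replicate 2). The cause was not tested. With the replicate number as a block 0 members passed. Deviations of same-numbered arrays correlated at -0.03 for control and 1% ethanol, 0.27 for control and 1.5% ethanol, and -0.04 for the 2 doses. With 2 arrays a group these values cannot decide whether the numbers pair the samples, and the labels do not say. The number of arrays limits the precision, with a median SE of 0.21 log2 units over all zebrafish probes.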
